A study of Mus musculus with 16 samples.

Results

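The genes described here are 40 interferon-induced genes of mouse liver, read out in every library of a series on diet and liver cancer. The list rests on what is known of these genes, but it was chosen with earlier results of these data known. A listed gene counted as a member if its normalised count was at least 10 in at least 2 of the 16 libraries. All 40 listed genes met that condition, out of 47069 rows in the table and 14836 rows that met it. By role they are 8 GTPases of the GBP and IRG families, 15 IFIT and other effectors, 2 genes of the ISG15 system, 6 oligoadenylate synthetase (OAS) genes, 5 sensors of viral RNA or DNA, and 4 signal transducers and transcription factors.

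The series compared a high-fructose with a cornstarch diet in mice treated with DEN (diethylnitrosamine), a carcinogen that is converted to its active form in hepatocytes and gives rise to liver tumours. Poly(A)-selected RNA of whole tissue was sequenced from 6 groups: tumours at 9 months on fructose (3 libraries) and on cornstarch (2), livers at 9 months on fructose (3) and on cornstarch (3), and livers at 5 months on fructose (2) and on cornstarch (3). Every group had received DEN, so the effect of the carcinogen itself cannot be read from these libraries. The labels name no strain, sex or time on the diet, and nothing in them says that the libraries of a group came from separate mice, so a p-value here covers only the spread among the libraries, which may be technical.

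Interferons are secreted proteins by which cells warn one another of viruses and other intracellular microbes. Type I and type III interferons act through receptor-bound JAK kinases on a complex that holds STAT2 and IRF9 and binds interferon-stimulated response elements (ISREs), whereas interferon gamma acts mainly on GAS elements. The induced genes include nucleic acid sensors, enzymes and membrane proteins that block viral growth, GTPases that attack the vacuoles of microbes, and feedback regulators. In the liver they are expressed by hepatocytes as well as by Kupffer cells, endothelium and other immune cells.

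The promoter stretches below are shown because they belong to members on which the results turn: Irgm2, Ifit1 and Isg15, which followed the swing shared by the members between libraries, and Oas1a, Oas1g, Oas3 and Trim30a, which differed between diets or tissues. They come from the RefSeq promoter table of build GRCm38.p6, are written along the strand of the gene, and carry in capitals every match to the ISRE core GAAANNGAAA on either strand.
Irgm2, chr11:58214888-58214947, plus strand: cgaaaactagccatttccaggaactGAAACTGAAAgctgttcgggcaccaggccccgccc
Ifit1, chr19:34640769-34640828, plus strand: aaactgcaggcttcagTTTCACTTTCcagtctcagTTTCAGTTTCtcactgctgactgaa
Isg15, chr4:156200856-156200915, minus strand: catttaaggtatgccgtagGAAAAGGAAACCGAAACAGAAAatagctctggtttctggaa
Oas1a, chr5:120907526-120907585, minus strand: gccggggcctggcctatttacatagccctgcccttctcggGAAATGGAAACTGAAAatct
Oas1g, chr5:120887614-120887673, minus strand: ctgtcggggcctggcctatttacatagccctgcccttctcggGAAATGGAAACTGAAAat
Oas3, chr5:120777700-120777759, minus strand: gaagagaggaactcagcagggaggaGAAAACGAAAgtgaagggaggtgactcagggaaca
Trim30a, chr7:104465195-104465254, minus strand: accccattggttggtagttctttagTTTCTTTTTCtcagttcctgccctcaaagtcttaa

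Isg15 held 3 overlapping matches within its stretch, Ifit1 held 2 separate ones on the other strand, and Oas1a and Oas1g held 2 overlapping ones. Shifted by 2 bases, the stretches of Oas1a and Oas1g were identical at 57 of 58 positions. The promoter table held 31 of the 40 members, with windows of 300 bases around the start of the gene. The ISRE core was found in 19 of these 31 members (61.3%), against 3.99% of the 27025 genes in the table. The GAS core TTCNNNGAA, a palindrome that reads the same on both strands, was found in 9 of the 31 members (29.0%), against 9.55% of all genes in the table. Isg20, an RNA exonuclease whose diet difference is given below, held a GAS match and no ISRE match in its window, and Irf7 held neither. A match is a description of the letters and not a binding site.

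Library depth ran between 11232461 and 38377674 reads assigned to genes, recovered exactly from the normalised counts. All 7 hepatocyte markers were present in tumours and livers alike, which does not tell the 2 tissues apart, and albumin (Alb) alone took between 5.46% and 16.5% of the reads. The 40 members together took between 0.0924% and 0.211%. Replicate 1 of the fructose livers and replicate 1 of the cornstarch livers at 5 months carried Xist at 12936 and 10883 with summed Y-linked counts of 0 and 1.91, whereas in the other 14 libraries the Y-linked sum was 1593 or more. The 2 fructose livers at 5 months thus differed in this pattern. Xist was also present, at 226, beside a Y-linked sum of 1593 in replicate 3 of the cornstarch livers at 9 months.

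The members spanned a wide range of levels. Per kilobase of exon, Bst2 (tetherin, which holds budding virus at the cell surface) was highest, at a mean normalised count of 2653 per kb over the 16 libraries, followed by Iigp1 (an immunity-related GTPase) at 1114 per kb. The lowest were Oas3 at 9.88 and Mx1, a dynamin-like antiviral GTPase, at 11.6 per kb. The fewest reads behind any member in any library were the 8 reads of Oas3 in replicate 3 of the cornstarch livers at 9 months, so its values there carry the largest counting error.

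Within groups the members moved together from library to library. The SD between libraries of a group was pooled over all 6 groups, tumours included. It was larger than the diet difference in liver over both ages for 30 of the 40 members. Its median was 0.56 log2 units, against a median absolute diet difference of 0.26. The latter is a difference of group means, with a median SE of 0.28. In the cornstarch livers at 9 months, replicate 2 had the highest value of the group for 36 of the 40 members, against 31.3% of all genes, and lay a median of 1.22 log2 units above the other 2 libraries. In the fructose livers at 9 months, replicate 3 was highest for 38 members, against 30.6% of all genes, and replicate 1 was lowest for 37, against 35.2% of all genes. In the fructose tumours, replicate 1 was lowest for 34 members, against 37.3% of all genes, and lay 0.89 log2 units below the other 2. Over all genes the same median was -0.02 log2 units in replicate 1 of the fructose tumours and 0.00, -0.01 and 0.00 in replicate 2 of the cornstarch livers and replicates 3 and 1 of the fructose livers. In bulk tissue, fewer cells of a type and less RNA per cell cannot be told apart.

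**Figure D1:**
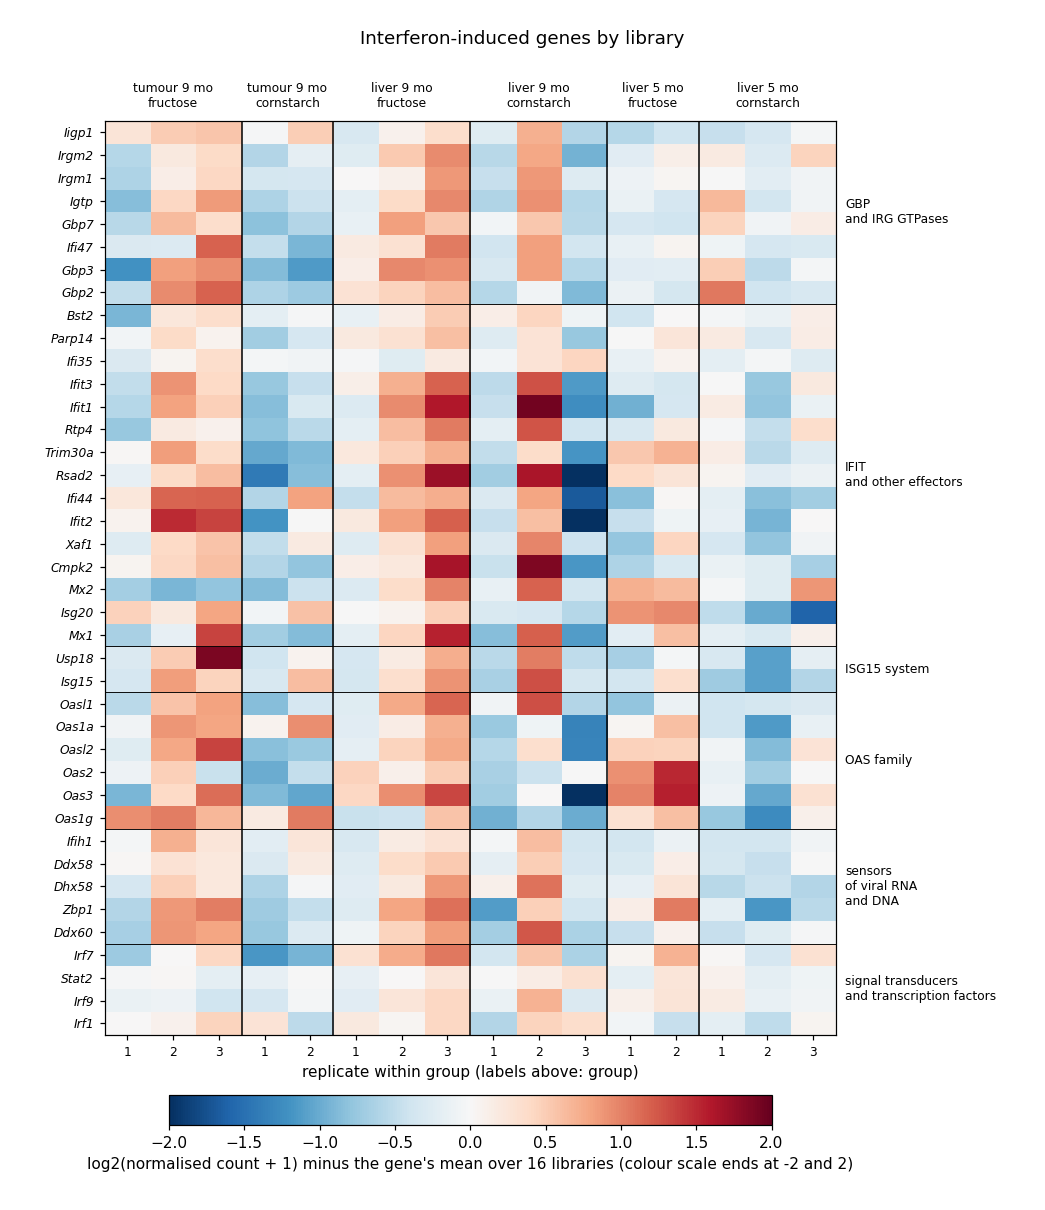
Deviation of each of the 40 members (rows, grouped by role) from its own mean over the 16 libraries, in log2(normalised count + 1), for every library (columns, by group). Replicate 3 of the fructose livers and replicate 2 of the cornstarch livers at 9 months stand out as columns in which nearly all members are high.

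The widest ranges within a group were all found in the cornstarch livers at 9 months. Rsad2 (viperin, an enzyme that makes a chain-terminating nucleotide) was at 113, 569 and 35.7 normalised counts in replicates 1, 2 and 3, a 15.9-fold range. Ifit1, which binds viral RNA that lacks the host cap, was at 168, 881 and 96.5, a 9.13-fold range. Ifit2, a relative of Ifit1, was at 93.5, 195 and 22.6, an 8.62-fold range. In all 3 genes replicate 2 was the high library and replicate 3 the low one. In the fructose livers of the same age Rsad2 was at 159, 345 and 599, Ifit1 at 191, 446 and 705 and Ifit2 at 148, 228 and 296, so the diets overlapped. Over all 16 libraries the highest value of Oas3 was 17.1 times its lowest and that of Rsad2 16.8 times, whereas that of Stat2 was 1.43 times.

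**Figure D2:**
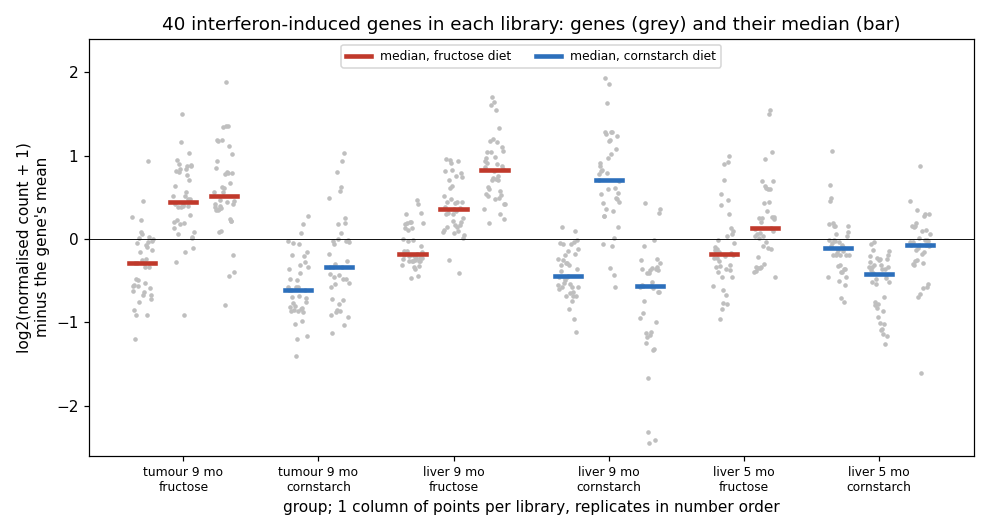
Deviation of the 40 members (grey points) from their own means over 16 libraries, in log2(normalised count + 1), with the median of each library as a bar, red for fructose and blue for cornstarch. The medians of the 9-month livers spread from -0.57 to 0.83, and the spread within a diet exceeds the distance between diets.

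The shared swing could be followed gene by gene. After the group means were subtracted, the deviations of 2 members correlated across the 16 libraries with a median Pearson r of 0.74 over 780 pairs (Spearman 0.72), and 766 pairs were above 0. Without replicate 3 of the fructose livers and replicate 2 of the cornstarch livers at 9 months the median was 0.61 over 14 libraries, with 727 pairs above 0. These are descriptions over libraries that share a table and a scaling. The members closest to the mean of the others were Irgm2 (an IRG GTPase that restrains its relatives on host membranes) at r = 0.99, Rtp4 at 0.97, Ifit1 at 0.97, Oasl1 at 0.96 and Irf7 at 0.96. The 5 sensors formed the tightest role, with a median r of 0.85 within it. They are Ifih1, Ddx58 and Dhx58 of the RIG-I-like family, Zbp1, which senses left-handed nucleic acid, and the helicase Ddx60.

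Not all members took part. Oas2 had an r of 0.10 with the mean of the others, Stat2 0.27, Irf1 0.28, Isg20 0.29 and Ifi35 0.34. Stat2 and Ifi35 also had the smallest within-group SDs of all members, 0.17 and 0.22 log2 units, against 1.01 for Rsad2. Stat2, a partner of IRF9 in the ISRE-binding complex, lay between 900 and 1283 normalised counts in every library. Among interferon pathway genes outside the 40, Ifit3b (r = 0.97), the kinase Tbk1 (0.89) and the chemokine Cxcl9 (0.89) were among those that followed the members closely. The member Ifit3 shares 51.2% of its 50-base transcript words with Ifit3b, so the reads of these 2 genes are not cleanly separate. The summed levels of cell type markers followed the members less closely, at 0.49 for 8 neutrophil markers, 0.40 for 11 Kupffer cell and macrophage markers, 0.34 for stellate cells, 0.31 for T and NK cells, 0.20 for sinusoidal endothelium, 0.16 for B cells and 0.12 for hepatocytes. The sum for plasmacytoid dendritic cells, at 0.21, consisted almost only of Ly6d, with a mean of 1768 over the 16 libraries against 7.91 for Siglech. In the fructose livers at 9 months the Kupffer marker sum was 25356, 17564 and 21457 in replicates 1, 2 and 3, where the members were lowest in replicate 1 and highest in replicate 3. In the cornstarch livers at 9 months it was 8544, 10065 and 3795, with the members highest in replicate 2 and lowest in replicate 3, as the sum was. In the fructose tumours it was 8290, 15201 and 5787, with the members lowest in replicate 1, and in the cornstarch livers at 5 months it was 11905, 8794 and 15275, with the members and the sum both lowest in replicate 2. The order of the sum thus followed that of the members in some groups and not in others, and its part in the swing was not tested.

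Of 6 markers of plasmacytoid dendritic cells, a main source of type I interferon, 2 reached 10 normalised counts in at least 2 libraries. Siglech lay between 3.07 and 22.7, whereas Ly6d averaged 5752 in fructose tumours and 3623 in cornstarch tumours, against 508 in fructose livers and 138 in cornstarch livers at 9 months and 879 in fructose livers and 31.9 in cornstarch livers at 5 months. The other 4 markers averaged at most 5.78 over the 16 libraries. Of 21 interferon genes in the table, 17 were at 0 in all 16 libraries and none reached 10 in 2 libraries. Interferon gamma (Ifng) had 13 reads over all 16 libraries, Ifnk 8, Ifnz 3 and Ifna5 1. Interferon transcripts were thus hardly detectable in bulk liver and tumour at this depth.

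The member with the highest mean normalised count of each role, not corrected for length, is given by library. Per kilobase of exon the same members lead, except that Isg15 (283 per kb) exceeds Usp18 (116 per kb). Iigp1 was at 7445, 8881 and 9159 in fructose tumours and 6132 and 8713 in cornstarch tumours. In the livers it was at 5002, 6565 and 7967 on fructose and 5252, 10130 and 4157 on cornstarch at 9 months, and at 4190 and 4704 on fructose and 4541, 4926 and 6051 on cornstarch at 5 months. The groups of Iigp1 overlapped between diets in each setting. Bst2 was at 1238, 2739 and 2974 in fructose tumours and 2051 and 2290 in cornstarch tumours, and in livers at 2114, 2580 and 3342 on fructose and 2572, 3149 and 2196 on cornstarch at 9 months and at 1773 and 2358 on fructose and 2266, 2122 and 2573 on cornstarch at 5 months. Its diets overlapped throughout as well.

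Usp18, which removes ISG15 from proteins and dampens the type I receptor, was at 228, 399 and 1033 in fructose tumours and 210 and 293 in cornstarch tumours. Usp18 in livers was at 221, 314 and 461 on fructose and 192, 565 and 195 on cornstarch at 9 months, and at 175 and 272 on fructose and 223, 130 and 246 on cornstarch at 5 months. One fructose tumour, replicate 3, exceeded all other libraries for this gene. Oasl1, an OAS-like protein that restrains translation of Irf7 in mice, was at 181, 389 and 459 in fructose tumours and 146 and 208 in cornstarch tumours. Oasl1 in livers was at 221, 442 and 588 on fructose and 251, 639 and 174 on cornstarch at 9 months, and at 152 and 242 on fructose and 199, 204 and 214 on cornstarch at 5 months. Both diets of Oasl1 overlapped in all 3 settings.

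Ifih1, which encodes the sensor of long double-stranded RNA, was at 730, 1223 and 880 in fructose tumours and 647 and 886 in cornstarch tumours. Ifih1 in livers was at 596, 840 and 916 on fructose and 731, 1142 and 580 on cornstarch at 9 months, and at 578 and 690 on fructose and 581, 581 and 708 on cornstarch at 5 months. Its log2 difference between diets in liver over both ages was -0.00 with a 95% interval of -0.40 to 0.40. Irf7, the factor that amplifies type I interferon production, was at 632, 1049 and 1390 in fructose tumours and 464 and 544 in cornstarch tumours. Irf7 in livers was at 1293, 1742 and 2164 on fructose and 808, 1532 and 669 on cornstarch at 9 months, and at 1087 and 1685 on fructose and 1064, 827 and 1284 on cornstarch at 5 months. The tumours on cornstarch were the lowest of all libraries for Irf7.

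The first comparison asks how fructose altered the liver at 5 months. Isg20 and Oas2, an OAS enzyme whose product activates RNase L, were higher on fructose, and no member was lower. Isg20 (7:78913424-78920396 on GRCm38) was at 111 and 115 normalised counts in fructose livers, against 41.0, 28.8 and 18.6 in cornstarch livers. The 2 groups were well apart, with a log2 fold change of 1.97 ± 0.31 (SE) on the log2(value + 1) scale (limma, Benjamini-Hochberg adjusted p = 0.00258). That scale understates changes of low genes. Oas2 (5:120730333-120749853) was at 201 and 302 in fructose livers, against 95.4, 64.7 and 105 in cornstarch livers. It was 2.82-fold higher on fructose (SE 0.28 log2 units, limma adjusted p = 0.00615). Without replicate 2 of the fructose livers it no longer passed, at a log2 difference of 1.21, with 1 library left in that group.

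These 2 of 40 members (5%) at 5 months stood against a background of 14.8% of the 14317 genes tested (10.3% higher), so the share of members called was below that of genes in general. Without replicate 2 of the fructose livers, which leaves 1 library in that group, the gap was smaller. The genes called numbered 1185 and 1263 without replicates 2 and 3 of the cornstarch livers, with 2 and 3 members among them. Of the 2119 genes called, 1478 were higher on fructose; under quantile normalisation this was 1226 of 2297. The groups did not overlap for 11 members that were higher on fructose (27.5%) and 1 that was lower (2.5%), beside a background of 27.1% and 24.7%. The median member difference was 0.14, against -0.01 over all genes, and fell to -0.05 without replicate 2 of the fructose livers. By role, 5 of 6 OAS genes were positive with a median of 0.99, whereas 2 of 8 GTPases were positive with a median of -0.20. The neutrophil marker sum at this age was between 21572 and 23937 in fructose livers, against 8.22 to 92.6 in cornstarch livers, and all 8 neutrophil markers passed the test. The Kupffer and macrophage sum was between 22472 and 25897 in fructose livers, against 8794 to 15275 in cornstarch livers. Their part in the result was not tested.

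In livers at 9 months no member passed the same test between diets. The limma count was 0 of 40, with 8 members at an unadjusted p under 0.05, beside a background of 2.54% of genes past the adjusted threshold and 20.5% past the unadjusted one. The 363 genes behind 2.54% were 960 by DESeq2, 0 in a fit of only the 2 groups, and 1, 5, 0 and 11 without replicates 1, 2 and 3 of the fructose livers and replicate 3 of the cornstarch livers of this age. Leaving out single 5-month libraries gave as few as 147, without replicate 2 of the fructose livers. edgeR also called 0 members and DESeq2 called 1, Oas3 (adjusted p = 0.016). The 3 members with the smallest p were Oas3, Oas2 and Trim30a. Oas3, the long OAS enzyme, was at 73.9, 106 and 140 in fructose livers, against 33.8, 55.3 and 9.53 in cornstarch livers. The groups of Oas3 did not overlap, and its difference was 1.93 ± 0.56 (limma adjusted p = 0.0968). Oas2 was at 147, 113 and 149 in fructose livers, against 67.5, 78.4 and 105 in cornstarch livers, with a difference of 0.71 ± 0.25 (limma adjusted p = 0.152). Its groups also lay apart. Trim30a, a tripartite-motif protein that dampens Toll-like receptor signalling in mice, was at 292, 355 and 415 in fructose livers, against 179, 326 and 112 in cornstarch livers, with a difference of 0.90 ± 0.33 (limma adjusted p = 0.165). One cornstarch library of Trim30a, replicate 2, lay within the fructose range.

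The limma count of 0 changed without replicate 2 of the cornstarch livers, the library in which the members were high. Without it 2 members passed, Oas3 at 2.45 (limma adjusted p = 0.0498) and Trim30a at 1.30 (adjusted p = 0.0387). In that fit 356 of 14251 genes passed. With all libraries 36 of 40 members were positive, their median was 0.53 against an all-gene median of about 0, and 5 had groups that did not overlap, all higher on fructose (12.5%, beside 12.9% of genes). As single libraries were left out, the median ran between 0.20, without replicate 3 of the cornstarch livers, and 0.88, without replicate 2 of that group. Members at an unadjusted p under 0.05 numbered 2 without replicate 3 and 25 without replicate 2, and 0 passed without replicate 3. Replicate 3 is the library with the 8 reads of Oas3 and the Xist count of 226. All 8 GTPases and all 6 OAS genes were positive at this age, with medians of 0.48 and 0.81. The Kupffer and macrophage sum was between 17564 and 25356 in fructose livers, against 3795 to 10065 in cornstarch livers, and 7 of 11 of these markers were called, which was not tested as a part of the member differences.

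**Figure D3:**
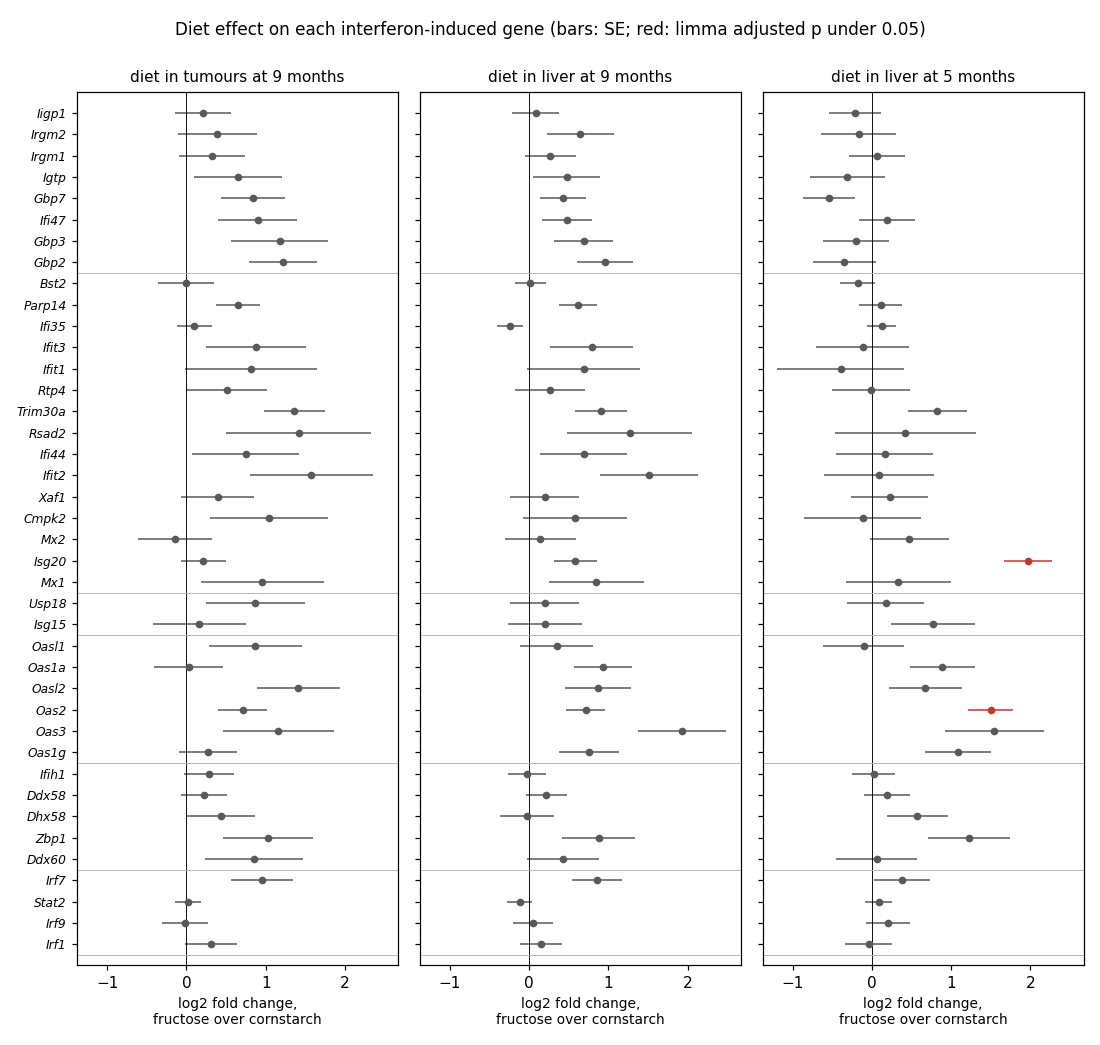
Log2 fold change of each member between fructose and cornstarch (points) with its SE (lines) in tumours, livers at 9 months and livers at 5 months; red points passed an adjusted p of 0.05. Most points lie right of 0 in tumours (37 of 40) and 9-month livers (36 of 40), yet only Isg20 and Oas2 at 5 months passed.

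Taking both ages of liver together as the mean of the 2 diet differences, 6 members were higher on fructose and none was lower. They were Isg20 at 1.28 ± 0.21 (limma adjusted p = 0.00214), Oas2 at 1.10 ± 0.19 (0.00277), Oas3 at 1.74 ± 0.42 (0.0154), Trim30a at 0.86 ± 0.25 (0.0308), Oas1a at 0.91 ± 0.27 (0.0386) and Oas1g at 0.92 ± 0.28 (0.0409). The 4 OAS genes among them, of 6 OAS members, lie in a cluster on chromosome 5, where Oas2, Oas3, Oas1g and Oas1a follow one another between 120730333 and 120907521. Oas1a was at 148, 191 and 283 in fructose livers, against 103, 163 and 67.9 in cornstarch livers at 9 months, and at 178 and 264 in fructose livers, against 131, 78.1 and 156 in cornstarch livers at 5 months. Oas1g was at 40.6, 41.4 and 83.4 in fructose livers, against 28.0, 36.9 and 27.4 in cornstarch livers at 9 months, and at 68.5 and 84.5 in fructose livers, against 32.5, 22.6 and 59.9 in cornstarch livers at 5 months. Oas1a overlapped between diets at 9 months only. Oas1a and Oas1g shared 57.6% and 45.7% of the 50-base words in their transcripts with other genes, mainly with each other, so how the reads were split between them is uncertain.

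At 5 months Oas3 was at 111 and 163 in fructose livers, against 51.5, 26.7 and 67.9 in cornstarch livers. Trim30a at that age was at 368 and 411 in fructose livers, against 283, 175 and 212 in cornstarch livers. Both genes were thus higher in every fructose library than in any cornstarch library at 5 months. Isg20 at 9 months was at 58.3, 61.6 and 82.0 in fructose livers, against 47.3, 46.1 and 39.3 in cornstarch livers, again without overlap.

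The 6 members called over both ages (15%) stood beside 21.4% of all genes, or 13.8% that were higher, so the members were called about as often as other genes. Of the 3059 genes called, 1970 were higher on fructose; under quantile normalisation this was 1590 of 3277, and 4 members passed. Without replicate 2 of the cornstarch livers at 9 months 2851 of 14251 genes passed, and without replicate 1 of that group 3247 of 14282. Without replicate 3 of the fructose livers at 9 months 2326 of 14271 genes passed. Without replicate 2 of the cornstarch livers at 5 months it was 2203 of 14267. The count of members moved with single libraries too. It was 11 without replicate 2 of the cornstarch livers at 9 months. It was 3 without replicate 3 of the fructose livers or replicate 1 of the cornstarch livers at 9 months. The same 3 were counted without replicate 2 of the cornstarch livers at 5 months. Without either of the fructose livers at 5 months the count was also lower, with 1 library left in that group. Isg20 and Oas2, which were among the members that hardly followed the shared swing, passed under every alternative run. Stat2, Irf1 and Ifi35 also followed it little and did not pass in the main fit. Oas3 was lost only without replicate 2 of the fructose livers at 5 months, where its difference was 1.60 and 1 library was left in that group. Without the 2 libraries that carried high Xist and nearly no Y-linked counts, Oas1a, Oas1g and Trim30a no longer passed (adjusted p = 0.0624, 0.109 and 0.0572). None of the 40 members passed a limma test of a difference in the diet effect between 9 and 5 months, with 2 at an unadjusted p under 0.05, beside backgrounds of 0.698% and 11.5% of genes; edgeR and DESeq2 called 0. Isg20 came closest, with a diet difference smaller at 9 months by 1.39 log2 units (-1.39 ± 0.41, limma adjusted p = 0.205).

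**Figure D4:**
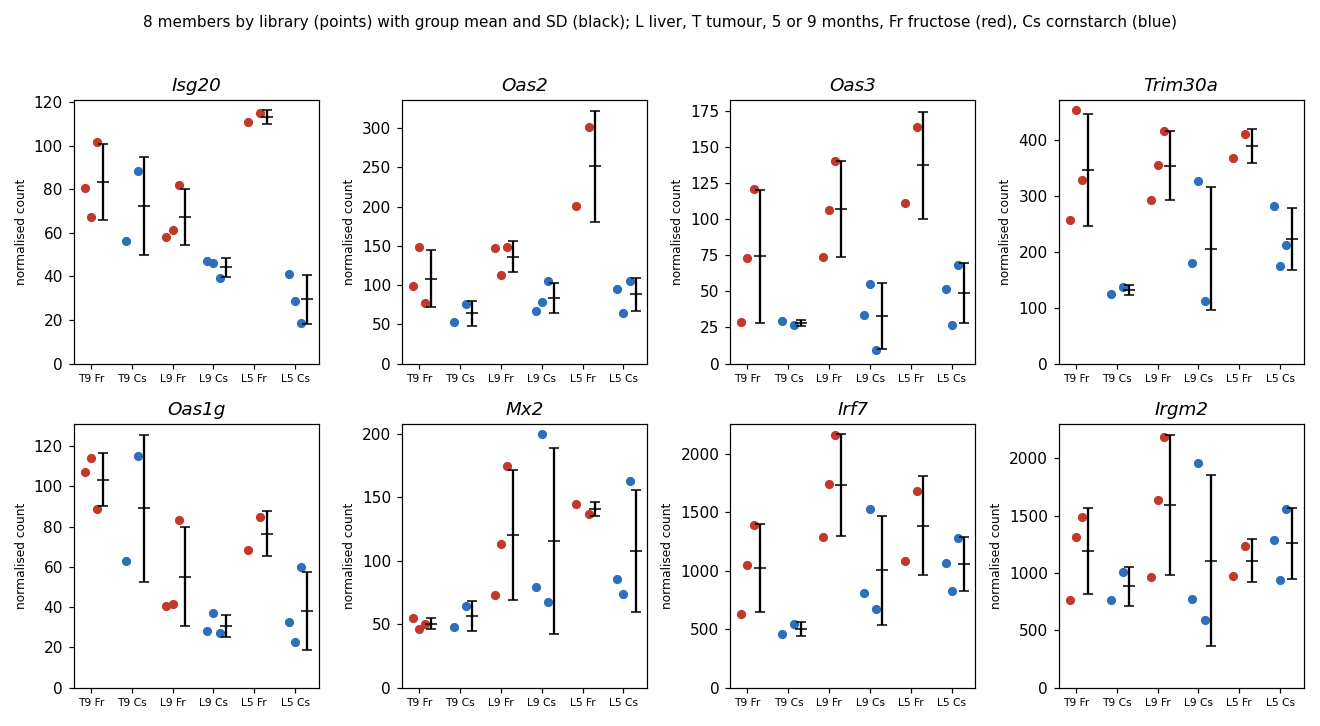
Normalised counts in every library (points) with group means and SDs (black) for 8 members; T and L are tumour and liver, 9 and 5 the age in months, Fr and Cs fructose and cornstarch. Isg20 and Oas2 separate the diets in the 5-month livers, Mx2 is low in all 5 tumours, and Irgm2 shows the swing of the 9-month livers.

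**Figure D5:**
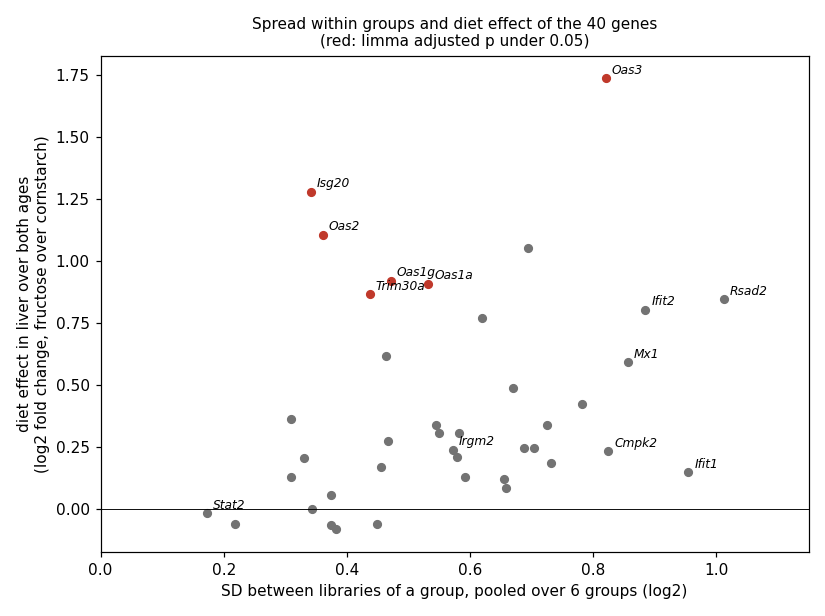
Diet difference of each member in liver over both ages (vertical axis, log2 fold change of fructose over cornstarch) against its SD between libraries of a group (horizontal axis, log2); red points passed an adjusted p of 0.05. The SD is pooled over all 6 groups. The members that passed, such as Isg20 with an SD of 0.34 and Oas2 with 0.36, include ones of small spread. They also include Oas3, at an SD of 0.82 and the largest difference (1.74). Rsad2 (1.01) and Ifit1 (0.95) spread most and did not pass. The test weighs a difference against the spread, so a small spread by itself favours a pass.

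Between tumours of the 2 diets no member passed. The limma count was 0 of 40 with 6 members at an unadjusted p under 0.05, beside a background of 0% of 14503 genes past the adjusted threshold and 8.12% past the unadjusted one. edgeR and DESeq2 also called 0. Even so, 37 of 40 members were positive with a median of 0.68, against -0.03 over all genes, and 12 members had every fructose tumour above both cornstarch tumours (30%, beside 10.9% of genes). Because the members move together between libraries, their directions are not independent of one another. Trim30a was at 256, 454 and 329 in fructose tumours, against 125 and 138 in cornstarch tumours, a difference of 1.36 ± 0.39 (limma adjusted p = 0.427). Gbp2, a guanylate-binding protein, was at 109, 294 and 346 in fructose tumours, against 99.3 and 92.0 in cornstarch tumours, a difference of 1.21 ± 0.43 (adjusted p = 0.527). In both genes every fructose tumour was above every cornstarch tumour, with replicate 1 of Gbp2 near the cornstarch level.

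Oasl2, an OAS-like member, was at 140, 283 and 426 in fructose tumours, against 92.6 and 99.3 in cornstarch tumours, a difference of 1.41 ± 0.52 (limma adjusted p = 0.531). With 3 and 2 tumours the median member difference ran between 0.39 and 0.94 as single libraries were left out. The Kupffer and macrophage sum was between 5787 and 15201 in fructose tumours, against 5161 to 5638 in cornstarch tumours, and its part was not tested. No member passed a limma test of the difference between the diet effects in tumour and in liver, with 0 at an unadjusted p under 0.05, beside backgrounds of 0% and 2.92%; edgeR and DESeq2 called 0. The lowest p was that of Oas1a, at -0.90.

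Tumours were then set against livers of the same age. Over both diets Oas1g was higher in tumours, and Mx2 and Irf7 were lower. These 3 of 40 members (1 higher and 2 lower) stood beside 23.8% of the 14503 genes tested, 13.4% higher and 10.5% lower. Oas1g (5:120876142-120887613) was at 107, 114 and 88.7 in fructose tumours and 63.1 and 115 in cornstarch tumours, against 40.6, 41.4 and 83.4 in fructose livers and 28.0, 36.9 and 27.4 in cornstarch livers. Every tumour thus lay above every liver of its own diet, and the difference was 1.21 ± 0.24 (limma adjusted p = 0.0063). Mx2 is a relative of Mx1 that the GENCODE annotation lists as a polymorphic pseudogene. It was at 54.8, 46.1 and 50.5 in fructose tumours and 48.0 and 64.7 in cornstarch tumours, against 72.8, 113 and 175 in fructose livers and 79.1, 200 and 67.9 in cornstarch livers. All 5 tumours lay below all 6 livers for Mx2, with a difference of -1.01 ± 0.31 (limma adjusted p = 0.0387). Irf7 differed by -0.85 ± 0.26 (limma adjusted p = 0.0391), from the library values given above, and its groups overlapped on fructose only.

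The calls of Mx2 and Irf7 were lost when single libraries were left out. Mx2 no longer passed without any 1 of the 5 tumours, replicate 2 or 3 of the fructose livers or replicate 2 of the cornstarch livers, nor with no filter on low values (adjusted p = 0.0542). Irf7 no longer passed without the same libraries, replicate 3 of the fructose tumours excepted. Leaving out a cornstarch tumour leaves 1 library in that group. Without replicate 1 of the cornstarch tumours the differences were -0.90 for Mx2 and -0.79 for Irf7. Oas1g passed in all of these fits. Within fructose alone the limma count was 0 of 40, with 3 at an unadjusted p under 0.05, beside backgrounds of 10.2% and 26.9%; edgeR called 0 and DESeq2 called 1, Mx2 (adjusted p = 0.0365). Oas1g differed there by 0.97 ± 0.33 (limma adjusted p = 0.0852), Mx2 by -1.15 ± 0.41 (0.103) and Irf7 by -0.80 ± 0.35 (0.173). Within cornstarch 1 of 40 passed beside 5.71% of genes, Oas1g at 1.45 ± 0.36 (limma adjusted p = 0.0459). That call was lost without any 1 of the cornstarch livers, or replicate 1 or 2 of the fructose livers or of the fructose tumours. It was also lost without replicate 2 of the cornstarch tumours, with 1 library left in that group and a difference of 1.03.

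Over both diets 10 of 40 members were positive between tumour and liver, with a median of -0.28, which ran between -0.39 and -0.08 as single libraries were left out. None of the 4 transducers and factors was positive, and 1 of 8 GTPases was, with a median of -0.36.

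With age, no member passed. In fructose livers, 9 against 5 months gave a limma count of 0 of 40, with 3 at an unadjusted p under 0.05, beside backgrounds of 3.48% and 17.4% (of 498 genes called 95 were higher at 9 months, and 200 of 621 under quantile normalisation); edgeR and DESeq2 called 0. Oas2 was closest, at 147, 113 and 149 in fructose livers at 9 months, against 201 and 302 in fructose livers at 5 months (-0.86, limma adjusted p = 0.128), followed by Isg20 (-0.76, 0.231) and Gbp7 (0.76, 0.26). In cornstarch livers the limma count was 0 of 40, with 3 at an unadjusted p under 0.05, beside backgrounds of 0% and 14.3%; edgeR and DESeq2 called 0. Dhx58, a regulator of the RNA sensors, was at 260, 516 and 206 in cornstarch livers at 9 months, against 165, 180 and 162 in cornstarch livers at 5 months (0.84, limma adjusted p = 0.313). The 2 ages of Dhx58 did not overlap. The median member difference with age on fructose was 0.38, against -0.01 over all genes, with 30 of 40 members higher at 9 months. All 8 GTPases were among these 30, and 1 of 6 OAS genes was. The median member difference with age on cornstarch was 0.16, and it was -0.38 without replicate 2 of the 9-month livers.

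The rest of the pathway was read from lists of genes outside the 40. Of 6 receptor chains, Ifngr1 and Il10rb were higher on fructose in liver over both ages, at 0.79 (limma adjusted p = 0.000776) and 0.72 (0.00513), and 0 of the 6 was lower, beside 13.8% of all genes higher. Between tumours and livers 3 of the 6 were higher, beside 13.4% of all genes, Ifngr1 by 2.84-fold (limma adjusted p = 0.000121), Ifngr2 by a log2 difference of 0.60 (0.0104) and Ifnlr1 by one of 3.81 (0.00496). Ifngr1, the ligand-binding chain of the interferon gamma receptor, was at 1535, 1017 and 1082 in fructose tumours and 1152 and 1371 in cornstarch tumours, against 608, 468 and 553 in fructose livers and 347, 320 and 364 in cornstarch livers. Ifnlr1, the specific chain of the type III receptor, was at 138, 108 and 45.2 in fructose tumours and 82.5 and 66.5 in cornstarch tumours, against 22.9, 1.12 and 11.8 in fructose livers and 7.71, 0 and 5.96 in cornstarch livers. For both receptor chains every tumour lay above every liver.

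Of 8 further kinases and factors, Irf8 (1.10, limma adjusted p = 0.00123) and Jak1 (0.33, 0.0294) were higher on fructose in liver over both ages. Of these 8, 0 were lower, beside 13.8% of all genes higher. Irf8 is a factor of the myeloid lineage. Of 14 sensing genes and adaptors, 8 were higher and 0 lower on fructose over both ages, beside 13.8% of all genes higher: Tlr7, Tlr8, Tlr9, Myd88, Tmem173, Aim2, Ifi204 and Unc93b1, with differences between 0.67 for Myd88 and 2.03 for Tlr9. Toll-like receptors 7, 8 and 9 sense nucleic acid in endosomes of immune cells, and 10 of 11 Kupffer and macrophage markers were called in the same comparison, whose part was not tested. Of 7 inhibitors tested, Socs3 (1.99, limma adjusted p = 0.000717), Ptpn6 (0.93, 0.00214) and Samhd1 (0.59, 0.00559) were higher and 0 lower, beside the same 13.8%. Of 46 further interferon-induced genes, 10 were higher on fructose over both ages and 0 lower, beside 13.8% of all genes higher, the largest difference being that of Slfn2 at 1.96 (limma adjusted p = 0.000459), a Schlafen gene of lymphoid and myeloid cells. In tumours against livers 3 of these 46 were lower and 0 higher, a share below the 10.5% of all genes that were lower, namely Ifitm1 at -0.99 (0.0442), Parp9 at -0.79 (0.0237) and its partner Dtx3l at -0.77 (0.0145).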

How the data were processed

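Whole-tissue RNA was sequenced after a TruSeq mRNA preparation, per the labels' protocols; FastQC, Trim Galore, STAR, RSEM, DESeq2 and GRCm38 are named in the submitters' processing notes, without versions or roles, and the sources used here do not give whether reads were counted by strand. The authors deposited 1 table of normalised counts (a signal: gene counts divided by 1 size factor per library); whole reads were recovered from it within 0.01 for 100% of values. Normalised counts were tested as log2(value + 1) with limma 3.58.1 (R 4.3.3; 1 mean per group, intensity trend, Benjamini-Hochberg adjustment over all genes, threshold 0.05), on genes at 10 or more in at least 2 libraries, in 1 fit of the 11 livers and 1 of the 11 libraries of 9 months. Recovered reads were tested with edgeR 4.0.16 and DESeq2 1.42.0 as alternatives (3001 and 3524 genes called for diet in liver over both ages, against 3059 with limma), beside other pseudocounts, filters, scalings, weights, fits and each library left out. Averages over both ages or both diets are means of 2 contrasts. The fitting scripts were tested on simulated data. The members and lists were chosen with earlier results of these data known. By rule, values are given for members past the threshold, the 3 with the smallest p where none passed, the member of each role with the highest mean normalised count and the 3 widest within-group ranges. Replicate numbers were given here and pair nothing. Replicates of a group differed by far more than sampling noise (chi-square per degree of freedom between 42.1 and 224). One gene of the pathway lists is not reported here by name.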

Additional observations from a re-analysis of the deposited data

How the results depend on the processing

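For members that passed in a comparison, or the 3 with the smallest p where none passed, no direction turned under any alternative. The directions of the other members were not followed across the alternatives. The number of all genes called moved between settings. With array weights it was 3625 of 14317 for diet in liver at 5 months, against 2119 in the main fit. With DESeq2 it was 960 of 14317 for diet in liver at 9 months, against 363. For tumour against liver DESeq2 called 4219 of 14503 genes over both diets, against 3458, and 2463 within fructose, against 1481. Counts of members past the threshold moved as follows, and the cause was not tested. Some of the fits without a single library left 1 library in a group, the fructose livers at 5 months or the cornstarch tumours. For diet in liver at 5 months (2 members), array weights gave 5, and leaving out single libraries gave 1 to 3. For diet in liver at 9 months (0), DESeq2 gave 1, and leaving out single libraries gave 0 to 2. For diet over both ages (6), leaving out single libraries gave 2 to 11. For tumour against liver over both diets (3), DESeq2 gave 5, and leaving out single libraries gave 1 to 3. Within fructose (0), DESeq2 gave 1, and single libraries 0 to 1. Within cornstarch (1), no filter on low values, quantile normalisation, array weights and a fit of only the groups compared gave 0, and single libraries 0 to 1. The median change with age on cornstarch ran between -0.38 and 0.31 when single libraries were left out. Of the median differences between tumour and liver, those within cornstarch (-0.54 to 0.13) and within fructose (-0.37 to 0.10) changed sign without replicate 2 of the cornstarch livers and replicate 1 of the fructose tumours. No paired analysis was possible because the labels carry no replicate numbers. Depth limits the interferon genes and, among members, Oas3 (8 reads in its lowest library), Isg20 and Mx1 (14 reads each) most.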
